A study of Homo sapiens with 2 samples.

Results

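The PAX-8 peaks on chromosome 13 are described here. They were chosen by position alone, as every peak of the deposited list whose coordinates begin on chromosome 13. The chromosome was picked as a gene-poor one whose peaks are sparse. There were 1133 such peaks among 45360 in all, and 43960 peaks lay on the 21 other autosomes. Peaks were called in 1 PAX-8 ChIP library with 1 Input library as its reference, and both libraries came from THP-1 foam cells treated with C18-3OH. THP-1 is an established human monocytic leukemia line. PMA (160 nmol/L, 24 h) turned the cells into macrophages, ox-LDL (48 h) into foam cells, and C18-3OH was then given at 100 µM for 24 h. The ox-LDL dose reads 50 mg/mL in the labels, whereas the methods give 50 µg/mL. No untreated library and no replicate list were analysed here, so no value carries replicate error and no effect of C18-3OH could be tested. Every interval below covers counting error only and treats peaks or genes as independent. The depth of both libraries is unknown.

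PAX-8 is a transcription factor of the paired-box family. Its paired domain contacts DNA, and it is best known for its role in thyroid and kidney development. In ChIP-Seq, fragments bound to the protein are enriched and sequenced, and a peak is a stretch where these reads, called tags, pile up above the Input. Chromosome 13 is an acrocentric human chromosome whose genes lie almost wholly on its long arm, and it is known as one of the gene-poorest autosomes.

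The promoters below belong to the protein-coding genes whose start site was covered by a promoter peak and could be matched to the RefSeq promoter table of GRCh38.p14. Each run covers 250 bases before to 50 bases after the start. Capitals mark a match to GTCANGC, on either strand, a motif of which GTCACGC, a core of the paired-domain site, is 1 form. TFDP1 encodes the DP1 partner of E2F factors, CLDN10 a tight-junction claudin, and POLR1D a subunit shared by RNA polymerases I and III. SPRYD7 encodes a protein with a SPRY domain.
TFDP1: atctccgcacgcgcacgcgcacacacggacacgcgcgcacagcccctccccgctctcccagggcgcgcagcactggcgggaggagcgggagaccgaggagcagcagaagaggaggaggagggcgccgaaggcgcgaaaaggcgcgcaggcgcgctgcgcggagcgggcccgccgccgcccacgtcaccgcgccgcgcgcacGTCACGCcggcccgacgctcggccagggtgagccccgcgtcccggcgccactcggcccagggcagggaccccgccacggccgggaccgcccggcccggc
CLDN10: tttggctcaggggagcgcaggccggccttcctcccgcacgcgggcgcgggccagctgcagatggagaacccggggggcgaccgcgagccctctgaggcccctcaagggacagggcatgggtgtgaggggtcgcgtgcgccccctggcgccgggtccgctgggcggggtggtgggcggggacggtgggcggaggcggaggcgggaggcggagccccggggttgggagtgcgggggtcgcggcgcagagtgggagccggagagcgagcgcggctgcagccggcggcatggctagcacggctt
SPRYD7: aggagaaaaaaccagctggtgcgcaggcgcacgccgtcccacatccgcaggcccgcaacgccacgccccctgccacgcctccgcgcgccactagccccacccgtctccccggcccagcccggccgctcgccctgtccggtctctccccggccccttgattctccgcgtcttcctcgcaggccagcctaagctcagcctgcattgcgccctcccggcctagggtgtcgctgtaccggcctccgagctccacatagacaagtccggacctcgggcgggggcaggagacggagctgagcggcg
POLR1D: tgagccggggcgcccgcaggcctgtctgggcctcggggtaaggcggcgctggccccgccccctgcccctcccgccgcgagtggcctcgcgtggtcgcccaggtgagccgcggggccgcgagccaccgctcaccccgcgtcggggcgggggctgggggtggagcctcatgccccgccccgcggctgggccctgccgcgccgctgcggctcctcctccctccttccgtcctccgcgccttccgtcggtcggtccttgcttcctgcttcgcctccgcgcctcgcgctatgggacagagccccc
In GRCh38.p14 these runs lie at chr13:113584503-113584802 for TFDP1, chr13:95552470-95552769 for CLDN10, chr13:49936291-49936590 for SPRYD7 and chr13:27621642-27621941 for POLR1D. SPRYD7 lies on the minus strand and the other genes on the plus strand.

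The TFDP1 run held GTCACGC, starting 49 bases before the start site. The other 3 runs held neither motif. GTCACGC was found in 659 of 22198 protein-coding promoters of the table (2.97%), and in 6 of 434 on chromosome 13 (1.38%). Over the 24 promoters of chromosome 13 genes with a promoter peak that could be matched, GTCACGC occurred in 1 and GTCANGC in 2. GTCANGC occurred in 10.7% of all protein-coding promoters. A match is a description of these letters and not a binding site. The matched promoters had a median GC content of 71.5%, against 62.0% in the other 410 protein-coding promoters of chromosome 13. The 410 are all those outside the 24, so they are not a set known to lack promoter peaks. The peak covered the start site in 4 of the 24, so these values do not describe the peak sequences. In hg19, the TFDP1 peak lay at chr13:114238583-114239589, held 22 tags (exact Poisson 95% interval 13.8 to 33.3) and had a listed fold enrichment of 7.35. The fold enrichment is the authors' ratio for ChIP over background. The CLDN10 peak had 14 tags and a fold enrichment of 8.99, the SPRYD7 peak 12 tags and 5.72, and the POLR1D peak 12 tags and 4.90. The last value was the lowest among the promoter peaks of the chromosome and was shared with EFNB2.

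The peaks ran from chr13:19031308 to chr13:115075621 in hg19. They stood at 11.8 peaks per Mb of that span (exact Poisson 95% interval 11.1 to 12.5), and the median autosome had 16.4. Only chromosome 4 was sparser among the 22 autosomes, at 11.3 peaks per Mb. When length was counted from position 1 of each chromosome, which takes in the short arm without peaks, chromosome 13 had 9.85 peaks per Mb and was the sparsest. The low density of peaks on this gene-poor chromosome was the reason for choosing it and is no finding. RefSeq lists 338 protein-coding genes on chromosome 13, or 3.52 per Mb of the span with peaks. This was also the second-lowest value after chromosome 18, at 3.47 per Mb. Counted per gene instead of per Mb, chromosome 13 stood high. It had 3.35 peaks per protein-coding gene, the fourth-highest of 22 autosomes, and the median autosome had 2.38. Chromosome 18 had 3.75 and chromosome 4 had 2.82. Both parts of this ratio, peaks and genes, were behind the choice of chromosome, so it is given as a description.

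The classes of the peaks were not themselves used in the choice of chromosome. They are defined by position relative to genes, however, and the chromosome was picked as gene-poor. The class shares and distances to start sites are therefore not independent of that choice and are given as a description. On chromosome 13, 551 of the 1133 peaks were intergenic (48.6%, Wilson 95% interval 45.7 to 51.5), against 38.4% on the other autosomes. The difference was 10.3 points (Newcombe 95% interval 7.34 to 13.2). Promoter peaks, whose centre lies within 2 kb of a start site, numbered 48 (4.24%), where 7.48% of all peaks in the list are promoter peaks. Against the 7.58% of the other autosomes the difference was -3.34 points (-4.40 to -1.99). Exon peaks numbered 10 (0.883%, against 2.29% on the other autosomes), the lowest share of any autosome. Intron peaks numbered 353 (31.2% against 35.1%, a difference of -3.92 points, -6.58 to -1.12). The 171 upstream peaks, 2 to 20 kb before a start site, made up 15.1% against 16.7%, and the interval of that difference (-3.61 to 0.613) includes 0.

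**Figure D1:**
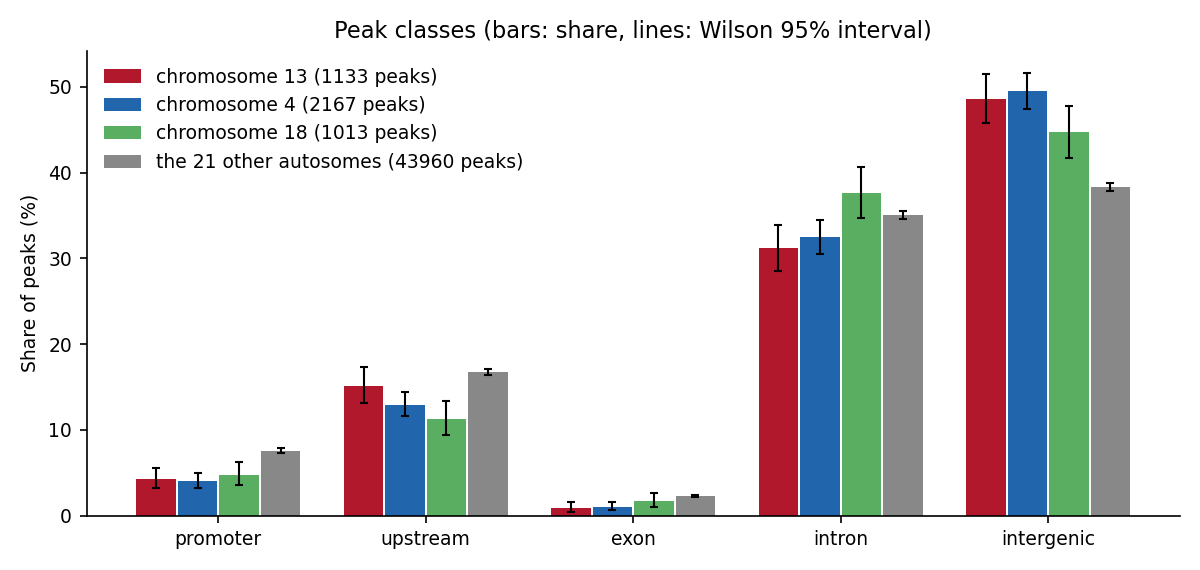
Share of peaks in each class (vertical axis, percent) on chromosome 13, on the gene-poor chromosomes 4 and 18 and on the 21 other autosomes together, with Wilson 95% intervals. On chromosome 13 the intergenic bar stands at 48.6% and the promoter bar at 4.24%, close to chromosome 4 and apart from the other autosomes together.

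Set against chromosome 4, no class share of chromosome 13 differed by more than its counting interval. The intergenic difference was -0.88 points (-4.47 to 2.71) and the promoter difference 0.22 points (-1.15 to 1.75). Set against chromosome 18, the upstream share was higher on chromosome 13 by 3.84 points (0.966 to 6.68) and the intron share differed by -6.45 points (-10.5 to -2.43). The intervals of the promoter, exon and intergenic differences from chromosome 18 included 0. Among the 60 peaks with a fold enrichment of at least 10, no class difference from the other autosomes had an interval that left out 0. Their intergenic share was 36.7% on chromosome 13 and 36.7% on the other autosomes, and the intron share was 40.0% against 35.1%. The intervals of these differences, -11.2 to 12.8 and -6.76 to 17.7 points, are wide because the peaks are few.

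The median distance to the nearest listed start site was 49.5 kb on chromosome 13, 60.4 kb on chromosome 4, 54.2 kb on chromosome 18 and 35.9 kb on the other autosomes. Within 20 kb of a start site lay 29.1% of the chromosome 13 peaks against 37.6% elsewhere on the autosomes (difference -8.47 points, -11.1 to -5.72). This share was higher on chromosome 13 than on chromosome 4 by 3.61 points (0.423 to 6.86) and than on chromosome 18 by 3.95 points (0.179 to 7.69). Beyond 500 kb lay 64 peaks (5.65%), against 3.38% on the other autosomes, 6.09% on chromosome 4 and 2.17% on chromosome 18. The differences from the other autosomes (2.27 points, 1.05 to 3.78) and from chromosome 18 (3.48 points, 1.85 to 5.15) exceeded counting error, and that from chromosome 4 did not.

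The peaks were unevenly spread along the chromosome. Cut into 3 segments of 32.0 Mb, it held 482 peaks in the first segment, 256 in the middle one and 395 in the last. These are 15.1, 8.00 and 12.3 peaks per Mb, with Poisson intervals that do not overlap (13.7 to 16.5, 7.05 to 9.04 and 11.2 to 13.6). Such intervals treat peaks as independent. The tile counts given below varied more than Poisson counts of equal mean would, so the intervals are likely too narrow. Their lack of overlap is therefore no test of the segments. The middle segment, chr13:51046079-83060849, holds 63 of the 338 protein-coding genes, where the first holds 175 and the last 100. Its peaks were mostly intergenic (71.5%, 65.7 to 76.7), against 42.9% in the first and 40.8% in the last segment. Intron peaks made up 16.4% of the middle segment, against 34.4% in the first and 36.7% in the last. The median distance to a start site in the middle segment was 120.1 kb. In the first segment it was 35.2 kb and in the last 52.4 kb. There were 4.06 peaks per protein-coding gene in the middle segment, 2.75 in the first and 3.95 in the last. The share of protein-coding genes with an assigned peak was 65.1% in the middle segment, 61.1% in the first and 64.0% in the last.

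**Figure D2:**
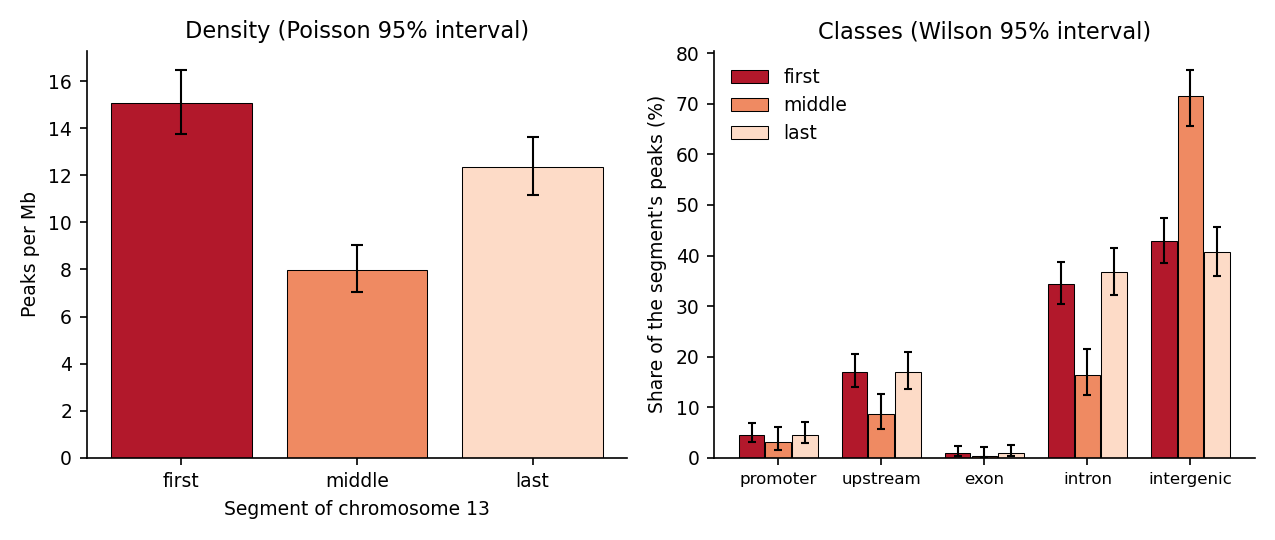
Peaks per Mb (left, with exact Poisson 95% intervals) and share of peaks in each class (right, percent, with Wilson 95% intervals) in the first, middle and last 32.0 Mb of the span with peaks. The middle segment has the lowest density, 8.00 peaks per Mb, and the highest intergenic share, 71.5%.

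On a finer scale, the 19 full bins of 5 Mb held 27 to 104 peaks, with a median of 55. The fullest bin was chr13:109031308-114031307 and the emptiest was chr13:69031308-74031307. Of the 97 tiles of 1 Mb none was empty. Their median was 10 peaks, and the fullest, chr13:113031308-114031307, held 37. The variance of the tile counts was 3.89 times their mean, whereas Poisson counts have a variance equal to their mean. This spread includes the differences between the segments. The 4 neighbouring bins that make up chr13:54031308-74031307, chosen after their values were seen, held 123 peaks, of which 104 were intergenic and 2 were promoter peaks.

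**Figure D3:**
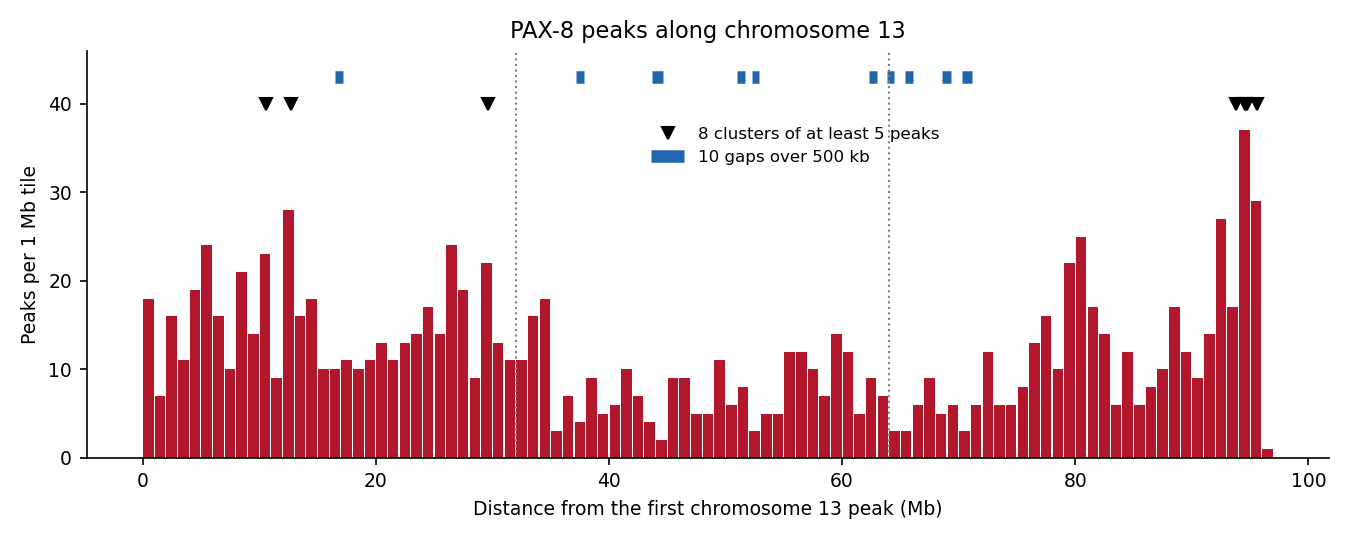
Peaks per 1 Mb tile (bars) against the distance from the first chromosome 13 peak in Mb. Triangles mark the 8 clusters of at least 5 peaks, blue bars the 10 gaps over 500 kb, and dotted lines the bounds of the 3 segments. The clusters sit in the first and last segments, the last 5 close together, and 9 of the 10 gaps lie in the middle segment or early in the last.

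Gaps between neighbouring peaks had a median of 47.7 kb, with quartiles of 18.6 and 103.3 kb. On the other autosomes the median was 32.5 kb. These lengths follow from the density and are given as a description. There were 10 gaps over 500 kb (0.883% of 1132 gaps, Wilson 95% interval 0.481 to 1.62), against 0.476% of gaps on the other autosomes. They add up to 7.15 Mb, or 7.50% of all gap length. The longest gap was 930.5 kb and the chromosome had none over 1 Mb, whereas the median autosome had a longest gap of 3198 kb. The acrocentric chromosomes 14, 15 and 22 had no gap over 1 Mb either, with longest gaps of 891.9, 579.0 and 256.3 kb. The acrocentric chromosome 21 went the other way, with a longest gap of 3399 kb. The longest gap of chromosome 13, chr13:62753895-63684436, lies between peaks assigned to the long non-coding RNA genes LINC01075 (13 tags, fold enrichment 9.80) and LINC00376 (12 tags, 6.54). The next was 818.0 kb long, from LINC00560 to LINC01040. A gap of 785.6 kb separated the LINC00430 peak from the LINC00397 peak. The fourth, 714.0 kb, began after a peak of SLITRK1, which encodes a neuronal membrane protein, and ended at SNORA107. The fifth, 698.2 kb, lies almost wholly within NBEA, a neuronal scaffold gene that spans 730.5 kb in the list. NBEA had 8 assigned peaks, and all of them lay at or before the left end of this gap. The peaks on both sides of the 5 longest gaps were ordinary, with 11 to 14 tags.

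**Figure D4:**
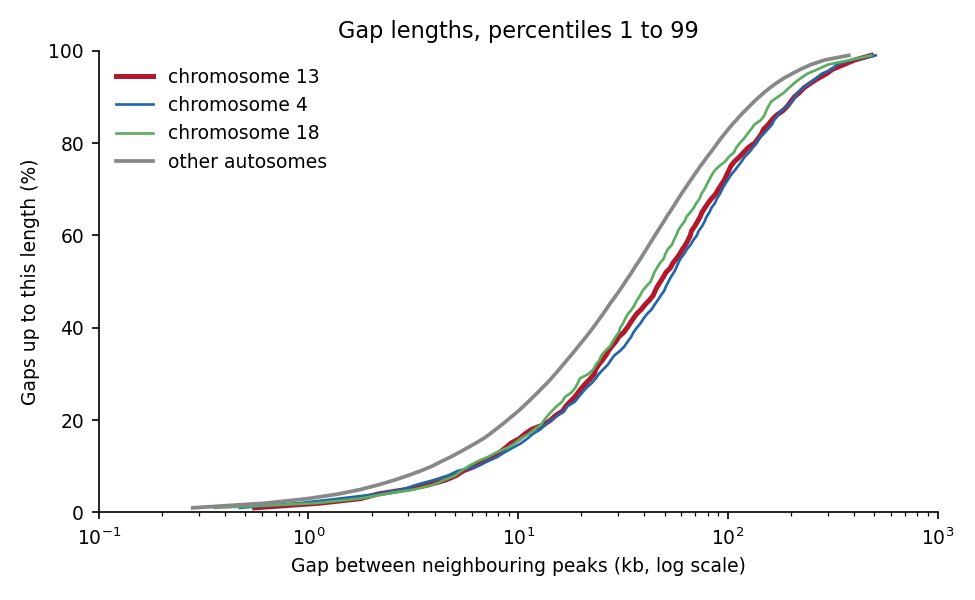
Cumulative share of gaps (vertical axis, percent) up to a given length (horizontal axis, kb, log scale) for chromosome 13, chromosomes 4 and 18 and the other autosomes. The chromosome 13 curve runs near those of chromosomes 4 and 18 and to the right of the other autosomes, with medians of 47.7 kb against 32.5 kb.

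The shares of short gaps and of clustered peaks, at fixed lengths, also follow from the density and are given as a description. On chromosome 13, 20 gaps were under 1 kb (1.77%), against 3.01% on the other autosomes. The shortest was 6 bp, between a pair of peaks assigned to NHLRC3, one with a fold enrichment of 8.99 and one with 7.38. Linking neighbours within 20 kb gave 8 clusters of at least 5 peaks, which held 45 peaks (3.97%). A link of 10 kb gave 1 cluster and a link of 50 kb gave 35, so the number depends on the link. On the other autosomes 11.6% of peaks lay in such clusters, and chromosome 13 had the second-lowest share, after chromosome 18. Of the 45 clustered peaks, 22 were upstream peaks (48.9%), 10 intronic, 8 intergenic, 4 promoter and 1 exonic. Of the peaks outside clusters, 13.7% were upstream peaks.

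The cluster with the most peaks, 7 in 41.6 kb, lay around LINC01070 at chr13:112826487-112868089 and held both promoter peaks of that non-coding RNA gene, with fold enrichments of 9.80 and 7.35. A cluster of 6 peaks lay at HSPH1, a chaperone gene, and before the start of its neighbour B3GLCT, a glucosyltransferase gene. Its peaks ran through the HSPH1 introns, the HSPH1 promoter (11 tags, 7.35) and the stretch between the genes. Another 6 peaks lay at MED4, a Mediator subunit gene, with 4.90 to 9.80 fold enrichment. The last cluster of 6 lay at GAS6, which encodes a ligand of the TAM receptors that macrophages use to take up dying cells. It held the GAS6 promoter peak (11 tags, 5.72) and 5 upstream peaks of GAS6 and its non-coding neighbours, the strongest at 10.62 before GAS6-DT. The 4 smaller clusters had 5 peaks each and lay in MTUS2, at the end of ATP11A, around the first listed start of MCF2L, and at the coagulation factor genes F7 and F10. In the MCF2L cluster 4 of the 5 peaks lay inside the listed span of the gene, and all 5 were classed as upstream of a listed MCF2L start site. The last 5 clusters, those from LINC01070 to GAS6, with 28 peaks, fall within the last 2.25 Mb of the span with peaks.

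The tags per peak had a narrow range. The median was 13, the quartiles 12 and 14, and the highest count 40, the lowest maximum of any autosome. That median was shared with 16 other autosomes. On chromosome 13, 64.9% of peaks had 11 to 13 tags, and no autosomal peak in the list had fewer than 11. On chromosome 13, 38 peaks had 20 or more tags (3.35%), against 14.3% on the other autosomes, 6.60% on chromosome 4 and 5.53% on chromosome 18. All of these differences exceeded counting error, the smallest at -2.17 points (-4.00 to -0.433). The other autosomes include chromosomes 1, 6 and 8, whose median tags were 16, 17 and 17. Fold enrichments ran from 4.43 to 13.07 with a median of 7.35, equal to the median of the other autosomes. A fold enrichment of at least 10 was listed for 60 peaks (5.30%), where 4.63% of all peaks reach it. The difference from the other autosomes was 0.68 points (-0.50 to 2.15). The values are coarse, since 77.3% of the chromosome 13 peaks had a fold enrichment within 0.0051 of a multiple of 0.817.

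A background was solved for each peak from its tags and p-value, as the Poisson mean per kb. The form of the p-value behind this was inferred from the list, and the solved values depend on it. It lay within 1% of one genome-wide value, 5.94 tags per kb, for 816 chromosome 13 peaks (72.0%), where this held for 55.7% of all peaks. The difference from the other autosomes was 16.9 points (14.1 to 19.4). The median autosome had 72.3%, so chromosome 13 stood near the middle, at rank 10 from the lowest of 22. Without chromosomes 6, 8 and 19 the difference was 9.93 points (7.20 to 12.5). Chromosomes 1, 5 and 9, with 25.6%, 43.5% and 46.4%, stayed in that reference. From chromosome 4 the difference was -1.35 points (-4.59 to 1.82) and from chromosome 18 -1.72 points (-5.47 to 2.05), and both intervals include 0. Along the chromosome the share ran from 58.2% to 82.8% over the 5 Mb bins. Of the chromosome 13 peaks away from the genome-wide value, 275 had a higher solved background and 42 a lower one.

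**Figure D5:**
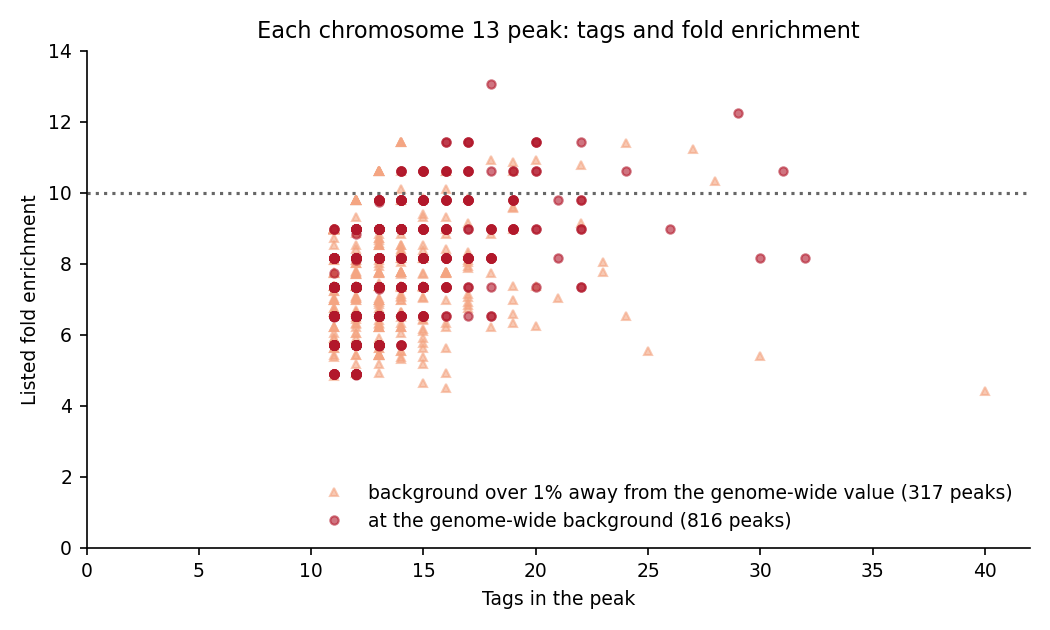
Listed fold enrichment (vertical axis) against tags (horizontal axis) for each of the 1133 chromosome 13 peaks. Circles are the 816 peaks at the genome-wide background and triangles the other 317, and the dotted line marks a fold enrichment of 10. The circles fall on rows at fixed steps, and the peak with the most tags, 40, has the lowest fold enrichment, 4.43.

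The peak with the highest fold enrichment, 13.07 with 18 tags, was intergenic at chr13:81116390-81117053. It lies 201.5 kb before the start of SPRY2, which encodes an inhibitor of receptor tyrosine kinase signalling. The next, 12.25 with 29 tags, lies 88.3 kb before OLFM4, which encodes a secreted glycoprotein of intestine and neutrophils. A further 13 peaks shared the value 11.44. A pair of them lay in introns of GPC6, a heparan sulfate proteoglycan gene, each with 14 tags. Others lay upstream of TEX30, of the cytokine gene IL17D (20 tags) and of COL4A1, a type IV collagen gene. Introns of LINC01052, WDFY2, MTUS2, MYO16 and ENOX1 held 1 each. One peak of 22 tags covered the start of COL4A2-AS1, the antisense transcript of the neighbouring collagen gene COL4A2. The last 2 at that value were assigned to SPACA7 and SPATA13-AS1.

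Ranked by the p-value score (the negative logarithm of the p-value, multiplied by 10), the first was a peak 3.73 kb before LINC00407 with 27 tags and a score of 146.1. It also had the highest FDR of the chromosome, 1.32%. Next came peaks assigned to LINC00442 (30 tags, score 115.9), LINC01052 (12 tags, 107.0), ADPRHL1 (28 tags, 106.9) and NALCN-AS1 (24 tags, 106.7). The CCDC70 peak had 31 tags and a score of 104.1, and the OLFM4 peak scored 103.2. A GPC6 peak, the TEX30 peak and a LINC00364 peak complete the first 10, with scores of 98.1, 95.9 and 93.4. The solved background was 0.570 times the genome-wide value for this LINC01052 peak and 0.799 times for this GPC6 peak. Their places in the ranking therefore do not follow from tags alone. The peak with the most tags, 40 in an intron of the phospholipid flippase gene ATP11A, had the lowest fold enrichment, and its solved background was 2.21 times the genome-wide value.

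Promoter peaks of protein-coding genes numbered 34, of 48 promoter peaks in all. In 11 of the 48 the peak covered the start site. The strongest at a protein-coding gene were C13orf42 (18 tags, fold enrichment 10.93), CPB2 (15 tags, 10.62) and DOCK9 (15 tags, 10.62). CPB2 encodes a carboxypeptidase that slows fibrinolysis, and DOCK9 an exchange factor for the GTPase CDC42. The motilin receptor gene MLNR (15 tags) and ELF1 (13 tags), an ETS factor of blood cells, both had 9.80. METTL21C, which encodes a protein lysine methyltransferase, followed at 9.32 with 12 tags. DGKH, CLDN10 and FREM2 had 8.99 each, with 11, 14 and 14 tags. DGKH encodes a diacylglycerol kinase and FREM2 an extracellular matrix protein. KCTD12, the gene of a protein with a potassium channel tetramerization domain, had 8.17 with 13 tags. Since tags ranged only from 11 to 22 over all 48 peaks and each count has a wide Poisson interval (8.40 to 24.7 for 15 tags), the order of neighbouring genes is not resolved.

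The 10 exon peaks were assigned to USP12, CDX2, BRCA2, FREM2, LINC00548, PCDH17, DNAJC3, FAM155A, ATP11A and the pair FARP1 and STK24. They had 11 to 16 tags and fold enrichments of 5.72 to 8.99. None reached a fold enrichment of 10.

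The peaks were assigned to 401 symbols, of which 212 were protein-coding genes, 149 long non-coding RNA genes and 20 miRNA genes. A single peak was assigned to 133 of them. Of the 338 protein-coding genes of the chromosome, 212 had an assigned peak (62.7%), where 54.8% of all protein-coding genes have one. This was rank 7 from the highest of 22 autosomes. Chromosome 4 had 61.6%, chromosome 18 70.4% and the median autosome 59.6%. The difference from the other autosomes was 6.06 points (0.744 to 11.1). Within 100 kb of a start site it was 2.77 points (-2.60 to 7.95). A promoter peak was found at 35 genes (10.4%), where 13.3% of all protein-coding genes have one, and the difference had the opposite sign (-3.64 points, -6.50 to 0.102). A peak with a fold enrichment of at least 10 was assigned to 41 genes (12.1%), where the share over all chromosomes is 7.06%. The difference from the other autosomes was 4.85 points (1.77 to 8.78). It is not adjusted for the peaks per protein-coding gene, 3.35 on chromosome 13 and 2.38 on the median autosome.

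MTUS2, which encodes a microtubule-associated protein, had the most peaks, 18, of which 17 were intronic. FARP1, an exchange factor gene, had 12, and IPO5, an importin gene, 11. All 11 peaks of IPO5 were intergenic. ATP11A had 10 peaks, all within the gene. FAM155A, an auxiliary subunit gene of the NALCN channel, also had 10, and so did the orphan receptor gene GPR12, whose 10 peaks were all intergenic. GPC6 had 9 intronic peaks over a listed length of 1181 kb. LINC00562, LINC00564 and LINC01052 had 9 each. The same 9 intergenic peaks were assigned to each of PRR20A, PRR20B, PRR20C, PRR20D and PRR20E. These are near-identical copies to which the list gives 1 position, and they cannot be told apart.

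The gene lists below are read beside the shares over all protein-coding genes, of which 54.8% had a peak and 13.3% a promoter peak (62.7% and 10.4% on chromosome 13). Of 22 macrophage and immune genes on the chromosome, 17 had a peak (77.3%) and 2 had a promoter peak (9.09%), ELF1 and GAS6. The strongest peaks were those of IL17D (11.44, upstream) and of the cysteinyl leukotriene receptor gene CYSLTR2 (10.62, intron). EPSTI1, ELF1 and TNFRSF19 each had a peak at 9.80. ALOX5AP, which encodes the 5-lipoxygenase activating protein, had 4 peaks between 5.72 and 8.17, and ACOD1, which makes itaconate in activated macrophages, had 2. LCP1, GPR183, GPR18, LPAR6 and LAMP1 had none. The lists were chosen with earlier results of these data known, so their shares are descriptions.

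Of 20 lipid, transport and metabolism genes, 14 had a peak (70.0%, against 62.7% of the protein-coding genes of chromosome 13), and DGKH and ATP11A had a promoter peak (10.0%, against 10.4%). ATP11A led with 10.62 in an intron. ABCC4, a multidrug and prostaglandin exporter gene, the propionyl-CoA carboxylase gene PCCA, the insulin signalling adaptor gene IRS2 and the flippase gene ATP8A2 each had 9.80 at their strongest peak. SLC10A2, the intestinal bile acid transporter gene, had 3 peaks up to 9.73. FOXO1 had 1 intronic peak with 15 tags and a fold enrichment of 8.54. The promoter peak of ATP11A had 12 tags and a fold enrichment of 6.54.

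Of 19 cell cycle, DNA repair and tumour suppressor genes, 7 had a peak (36.8%, against 62.7% of the protein-coding genes of chromosome 13 and 54.8% of all). The list includes the long non-coding RNA genes DLEU1 and DLEU2. Neither had a peak, and the protein-coding backgrounds do not cover them. LIG4, a DNA ligase gene, led with 10.62 at 88.9 kb from its start. RB1, the retinoblastoma gene, had 2 intronic peaks of 9.80 and 6.54, and LATS2, a Hippo pathway kinase gene, 4 peaks up to 9.80. RFC3, a clamp loader gene, had 4 peaks up to 8.99. BRCA2 had 1 peak, in an exon, with 11 tags and a fold enrichment of 7.35. TFDP1 alone had a promoter peak.

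Of 20 protocadherin, SLITRK, glypican and other neural genes, 18 had a peak (90.0%, against 62.7% of the protein-coding genes of chromosome 13 and 54.8% of all). These shares are not matched for gene length or for distance between genes, and the part of either was not tested. In this list GPC5 spans 1469 kb and SLITRK6 6.63 kb. The SLITRK1 peaks were all intergenic and lay up to 954.1 kb from its start. GPC6, MYO16 and ENOX1 led with 11.44, followed by GPC5 and SLITRK1 with 10.62. NALCN, a sodium leak channel gene, and DIAPH3, a formin gene, had promoter peaks of 6.54 and 6.21. PCDH9 and SLITRK5 had no peak. Of 15 developmental transcription factor genes 10 had a peak (66.7%, against the same 62.7% and 54.8%), and SMAD9 alone a promoter peak (13 tags, 5.72). GSX1 and KLF12 led at 10.62, and DACH1 and SMAD9 each reached 9.80. Of 20 genes of the 13q34 end, 16 had a peak (80.0%) and 4 a promoter peak, GAS6, ATP11A, TFDP1 and ARHGEF7, beside the same backgrounds of 62.7% with a peak and 10.4% with a promoter peak on chromosome 13. COL4A1 led with 11.44, then CDC16 with 10.78, and ATP11A and RASA3 with 10.62. F10 had 3 peaks of 5.72 to 8.99 and F7 1 of 6.54, all upstream. The promoter peak of ARHGEF7, an exchange factor gene for RAC1, had 12 tags and 5.72.

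Of 12 entries on the miRNA list 3 had a peak, where 44.2% of all miRNA genes have one. The list also holds MIR17HG, the non-coding host gene of the miR-17-92 cluster, which that share does not cover. MIR17HG and its 6 miRNAs lie at the same locus and are not separate cases. MIR17HG and 5 of the 6 miRNAs had no peak assigned. The sixth, MIR92A1, had a peak of 19 tags and a fold enrichment of 10.87 centred 16.2 kb after its start. MIR623 had peaks of 9.14 and 6.54 and MIR320D1 an upstream peak of 8.17. Outside the list, MIR4306 and MIR8073 each had a promoter peak, with 11 tags and 6.54 and with 12 tags and 5.72. These 2 were named after their values were seen. MIR8073 lies next to COL4A1, with which it shares the upstream peak of 11.44. Their mature sequences from RefSeq, with that of the miRNA from MIR92A1, have seeds (bases 2 to 8, in capitals) that differ from each other.
hsa-miR-92a-3p: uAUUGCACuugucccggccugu
hsa-miR-4306: uGGAGAGAaaggcagua
hsa-miR-8073: aCCUGGCAgcagggagcgucgu
In GRCh38.p14 they lie at chr13:91351361-91351382, chr13:99643123-99643139 and chr13:110340968-110340989, all on the plus strand.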

How the data were processed

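The deposited file is 1 list of PAX-8 ChIP-Seq peaks on hg19, from 1 ChIP and 1 Input library of THP-1 foam cells given C18-3OH. The authors' list gives per peak the count of tags, the fold enrichment as a ratio, the p-value as a score (10 times its negative logarithm), the FDR in percent, a class and the distance to each assigned RefSeq start site. FastQC and the build hg19 are named in the submitters' processing notes. For the aligner, duplicate handling and peak caller, neither name nor version is given in the sources used here. No raw reads were processed here, and no total of reads per library is known.

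The table had 103443 lines, and lines of 1 position were counted once. The largest score, 3100, was left out when backgrounds were solved from tags and p-values. The form of the p-value (base 10, chance of more than the listed tags) is not stated by the sources and was inferred from the list, where it puts 55.7% of peaks within 1% of 1 background. Every solved background depends on it. A gap is the distance between neighbouring peaks, and a cluster at least 5 peaks linked within 20 kb. Shares have Wilson and differences Newcombe 95% intervals, counts exact Poisson intervals, and no test was run, because only 1 list was analysed here. Repeats of the experiment, which the methods mention, were not analysed here. All 401 chromosome 13 symbols matched the RefSeq gene table of GRCh38.p14, which was used for names and gene order. A RefSeq promoter stood for a listed start site only where the offset between builds was within 100 bp of that of at least 3 of 10 neighbouring genes, which held for 24 of 35 genes. Motifs were GTCACGC and GTCANGC on both strands, and the first is contained in the second.

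Named were the 10 peaks with the highest fold enrichment and those tied with the last, the 10 with the highest score, the 10 genes with the most peaks and their ties, the ends of the 5 longest gaps, genes of clusters, list members with a promoter peak or the strongest peaks, and the 10 strongest promoter peaks of protein-coding genes. One gene under this rule is not reported here, and further genes are given as examples. The members, lists and rules were chosen with earlier results of these data known. The alternatives tried were higher limits of fold enrichment, a lower FDR, merged peaks, other windows, links, spans and reference sets. The solving of backgrounds, the Newcombe intervals, the clustering and the merging were run on simulated data. The simulated p-values had the same form that the solving step assumes, so that form was not tested. Calculations were run in Python 3.11.15 with pandas 2.3.3, numpy 2.4.6 and scipy 1.17.1, and figures were drawn with matplotlib 3.10.9.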

Additional observations from a re-analysis of the deposited data

How the results depend on the processing

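Of 54 values under alternatives, 40 were counted as unchanged. They kept their direction and side of the interval, moved by less than their counting error, or, for counts, stayed within a fixed factor. By that factor, 6 clusters at an FDR of at most 0.5%, against 8, were among the 40. Some alternatives could not differ. No peak had several classes, so taking the class on its first line changed no class share. No gap exceeded 1 Mb, so leaving out such stretches left the density as it was. With the limit of fold enrichment of at least 10, 60 peaks remained on chromosome 13, at 0.640 per Mb, with a median gap of 1025 kb, 66.1% of gaps over 500 kb and 0 clusters, as a shorter list must give. Under that limit the class differences from the other autosomes were -1.56 points for promoter, -2.46 for exon, 4.86 for intron and -0.0016 for intergenic peaks, so the first pair no longer left out 0 and the second pair changed sign. The cause was not tested. Linking within 10 kb gave 1 cluster and within 50 kb 35. Density from position 1 was 9.85 per Mb, an alternative chosen after seeing the data, and placed chromosome 13 lowest of 22. The gene share differed by 2.77 points within 100 kb and by -3.64 points with promoter peaks only, the cause not tested.

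No paired analysis was possible because 1 list from 1 ChIP and 1 Input library was analysed, and leaving out a replicate was not possible either. The low tags, 11 to 40 per peak, limit the order of single peaks, and the number of Input reads in each peak is not in the columns used here.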
